A study of Homo sapiens with 2 samples.

Results

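The miR-374 family and the microRNAs made beside it, miR-421 and miR-545, were followed in 2 small RNA libraries of the oral squamous carcinoma line UM-SCC6. The set holds 8 names: miR-374a-5p, miR-374a-3p, miR-374b-5p, miR-374b-3p, miR-374c-3p, miR-421, miR-545-3p and miR-545-5p. Of these, 7 are among the 1178 named microRNAs tabulated and miR-545-5p is not. Members were chosen by name, as products of these loci, and the set was chosen for the higher miR-374b-5p value in the invasive cells, so that difference is given as a description with no test. One library came from the parental UM-SCC6 culture. The other came from UM-SCC6-M, cells of the same line that had crossed a matrix channel in a microfluidic device, were collected at the invasion front and regrown, and had been through 3 rounds of this selection. UM-SCC6-M is thus a selected population of 1 line, and the labels call it highly invasive with some mesenchymal traits. Each culture gave 1 library, so the differences below lack replicates and none was tested between the cultures.

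MicroRNAs (miRNAs) are short RNAs that guide Argonaute proteins to messenger RNAs and lower their output, mainly through the seed, bases 2 to 8 from the 5′ end. Each is cut from a hairpin whose 5p and 3p arms can both yield a product, and usually 1 arm prevails. The hairpins studied here lie within FTX, a long noncoding RNA gene of the X-inactivation centre, and those on its strand are thought to be cut from its transcript. The 5p products of miR-374a and miR-374b are classed together by their seed and have been reported to promote or restrain tumour growth in different cancers.

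The hairpins form 2 groups on chromosome X. In GENCODE release 29 (GRCh38), MIR421 (chrX:74218377-74218461) and MIR374B (chrX:74218547-74218618) lie 85 bases apart on the minus strand. MIR545 (chrX:74287104-74287209) and MIR374A (chrX:74287286-74287357) lie 76 bases apart on the same strand, 68.5 kb from MIR374B. MIR374C (chrX:74218549-74218618) is annotated on the plus strand, over MIR374B. FTX covers chrX:73946555-74293574 on the minus strand. Of its 18 annotated transcripts, 7 span MIR421 and MIR374B and 13 span MIR545 and MIR374A, in each case within an intron. Positions come from the annotation, since the build used for the deposited table is not given in the sources used here.

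Mature sequences from RefSeq (GRCh38.p14) matched 7 of the 8 members by name. They are shown because members overlap in sequence, which decides which values are separate measurements. Capitals mark the seed.
miR-374b-5p: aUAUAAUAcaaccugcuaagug
miR-374c-3p: cACUUAGCagguuguauuauau
miR-374b-3p: cUUAGCAGguuguauuaucauu
miR-374a-3p: cUUAUCAGauuguauuguaauu
miR-421: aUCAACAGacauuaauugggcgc
miR-545-3p: uCAGCAAAcauuuauugugugc
miR-545-5p: uCAGUAAAuguuuauuagauga

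miR-374c-3p is the exact reverse complement of miR-374b-5p over all 22 bases (chrX:74218587-74218608, plus and minus strand). The 3p products of miR-374a and miR-374b are alike in 18 of 22 bases. They differ, with the miR-374a-3p base first and positions counted from the 5′ end, by U5G, A9G, G17A and A19C. Of these 4 changes only U5G lies in the seed, so the 2 products have different seeds. No other named entry of the table with a RefSeq sequence had a seed identical to that of 1 of the 7 members shown. miR-374a-5p, the member without a matched sequence, could not enter this comparison. Its seed, by which it is classed with miR-374b-5p, was therefore not compared here. The members are rich in A and U. The GC share was 22.7% for miR-374a-3p and miR-545-5p, 31.8% for miR-374b-5p, miR-374b-3p and miR-374c-3p, 36.4% for miR-545-3p and 43.5% for miR-421, against a median of 47.8% over the 158 miRNAs at 50 or more normalized reads with a sequence.

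The hairpin of miR-374b and the overlapping hairpin annotated as miR-374c show how the names are laid over 1 locus. Capitals mark the annotated mature products, the 5p arm first.
MIR374B: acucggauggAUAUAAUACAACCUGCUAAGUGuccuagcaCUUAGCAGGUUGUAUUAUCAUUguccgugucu
MIR374C: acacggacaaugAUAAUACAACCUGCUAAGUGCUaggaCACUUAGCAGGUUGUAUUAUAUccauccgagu

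Values are reads after the authors' scaling, called normalized reads. Read numbers were recovered from the steps in which the values lie (0.119 normalized reads for 1 read in UM-SCC6-M, 0.133 in the parental library). Entries listed above 0 held 7699264 reads in UM-SCC6-M and 8182713 in the parental library. A log2 ratio above 0 means a higher value in UM-SCC6-M than in the parental library, and is given with the exact (Clopper-Pearson) 95% counting interval in brackets. PCR copies are not independent molecules, and the intervals leave out all variation between cultures and preparations. The squamous epithelial markers summed to 19716.5 normalized reads in UM-SCC6-M and 16442.8 in the parental library. miR-200b-3p (17481 and 12823) made up 88.7% and 78.0% of these sums and was the one abundant marker that was higher in UM-SCC6-M. miR-200a-3p (1344 against 2674), miR-429 (793.1 against 844.7) and miR-31-5p (93.9 against 98.5) were lower there. miR-203a-3p (2.75 against 0) and miR-200c-3p (1.79 against 2.66) were scarce in both libraries. miR-205-5p and miR-141-3p of that list were not analysed here, as they are not among the tabulated names. Of 8 fibroblast markers, 3 were listed at 0 in both libraries (miR-145-5p, miR-214-3p, miR-127-3p) and the list summed to 114.9 against 64.6. miR-199b-5p (87.2 against 42.0), miR-199a-3p (21.9 against 10.5) and miR-409-3p (1.79 against 0) were higher in UM-SCC6-M. miR-143-3p (4.06 against 10.4) and miR-199a-5p (0 against 1.73) were lower there. Of 5 blood markers, miR-223-3p was not among the tabulated names and 3 were at 0 in both (miR-142-3p, miR-451a, miR-150-5p), with sums of 17.9 and 24.6. The endothelial pair summed to 550.5 and 986.1, with miR-126-3p lower (519.9 against 968.3) and miR-126-5p higher (30.6 against 17.8) in UM-SCC6-M. Members of the epithelial, fibroblast and endothelial lists thus went both ways, and the part of these cell types in the results was not tested. In such bulk RNA, a change in the number of cells that make a miRNA and a change in its amount per cell cannot be told apart.

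Of the 8 members, 6 names had values above 0, standing for 5 measurements. miR-374b-5p had 1541 normalized reads in UM-SCC6-M and 466.7 in the parental library, on 12905 and 3512 reads. It ranked 51st of the named miRNAs in UM-SCC6-M and 91st in the parental library. Its log2 ratio was 1.72 (1.67 to 1.78), or 3.30-fold. This was the largest difference in the set and the value for which the set was chosen. miR-374c-3p had 1540 and 466.4 normalized reads (12894 and 3510 reads). Its reads were 11 and 2 fewer than those of miR-374b-5p, so both names are taken as 1 measurement under the name miR-374b-5p in every sum, share and count of members. Counts and ranks over all named miRNAs keep both names.

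miR-374a-5p, the related 5p product reported to act on inhibitors of Wnt signalling, had 416.6 normalized reads in UM-SCC6-M and 294.6 in the parental library. Its log2 ratio was 0.50 (0.42 to 0.58). It differs from miR-374b-5p by few bases, and how reads matching both were assigned is not given in the sources used here. miR-374a-3p, from the other arm of the same hairpin, had 340.5 and 393.1 normalized reads and the lowest ratio of the set, -0.21 (-0.28 to -0.13). Under scaling to total reads that ratio was 0.04, so no direction is given for miR-374a-3p. miR-374b-3p, the minor arm of the miR-374b hairpin, was scarce in both libraries, with 54.4 and 40.3 normalized reads and a ratio of 0.43 (0.22 to 0.65).

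miR-421, reported to repress the DNA damage kinase ATM, had 23.8 normalized reads in UM-SCC6-M and 17.1 in the parental library, on 199 and 129 reads. Its log2 ratio was 0.47 (0.14 to 0.80). It stayed below 50 normalized reads in both libraries. miR-545-3p, reported to repress regulators of the cell cycle, was listed at 0 in both libraries. Values below 1 are listed as 0 in this table, which corresponds to at most 8 reads in UM-SCC6-M and 7 in the parental library. miR-545-5p, the other arm of that hairpin, was not analysed here, as it is not among the tabulated names. The MIR374A hairpin, 76 bases from MIR545, gave 3489 5p and 2852 3p reads in UM-SCC6-M.

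**Figure D1:**
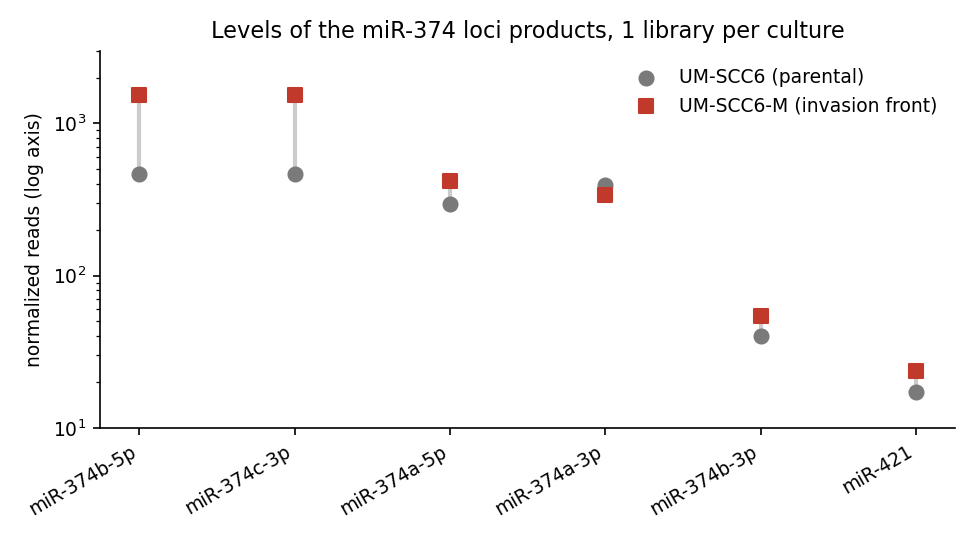
Normalized reads (log axis) of the 6 member names with values above 0 in the parental library (grey circles) and the UM-SCC6-M library (red squares), 1 library each. miR-374b-5p and miR-374c-3p show the same gap, 1541 against 466.7 and 1540 against 466.4. The other gaps are smaller. miR-374a-5p was 1.41-fold, miR-421 1.38-fold and miR-374b-3p 1.35-fold higher in UM-SCC6-M, and miR-374a-3p had 340.5 against 393.1.

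The order of the levels differed between the libraries. In the parental library miR-374b-5p (466.7 normalized reads) was followed by miR-374a-3p (393.1), miR-374a-5p (294.6), miR-374b-3p (40.3) and miR-421 (17.1). In UM-SCC6-M, miR-374b-5p stood far above miR-374a-5p (416.6) and miR-374a-3p (340.5), which had changed places. miR-374b-5p made up 64.8% of the members' reads in UM-SCC6-M (64.2 to 65.5) and 38.5% in the parental library (37.5 to 39.5). The share of miR-374a-3p was 14.3% (13.8 to 14.8) in UM-SCC6-M and 32.4% (31.5 to 33.4) in the parental library. Shares do not depend on how the libraries were scaled to each other. They do depend on miR-374b-5p, for which the set was chosen, so they are a description only.

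Together the 5 measurements had 2376 normalized reads in UM-SCC6-M and 1212 in the parental library, a log2 ratio of 0.97 (0.94 to 1.01). The summed difference was 1165 normalized reads, and miR-374b-5p accounted for 92.2% of it. The set was chosen for that product, so every sum that holds it is a description only. Without miR-374b-5p the sums were 835.4 and 745.1, with a log2 ratio of 0.16 (0.11 to 0.22). By locus, the products of MIR374B and MIR421 summed to a log2 ratio of 1.63 (1.58 to 1.68), and those of MIR374A to 0.14 (0.09 to 0.19). The 5 measurements made up 0.258% of the recovered reads of all listed entries in UM-SCC6-M and 0.111% in the parental library. That total keeps both names of opposite-strand pairs, so some reads may enter it more than once.

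The members' ratios were set against each other, which removes the scaling. miR-374b-5p exceeded each of the other 4 measurements in log2 ratio by 1.22 to 1.93. The smallest gap was to miR-374a-5p (1.22, counting standard error 0.05) and the largest to miR-374a-3p (1.93, 0.05). Its gap to miR-421, cut from the neighbouring hairpin, was 1.25 (0.17). All gaps to miR-374b-5p include the value for which the set was chosen, so they are a description only. miR-374a-5p, miR-421 and miR-374b-3p lay within 0.07 of one another, and every interval of their differences included 0. The widest of these, for miR-421 against miR-374b-3p, ran from -0.35 to 0.42. miR-374a-3p lay below these 3 by 0.64 to 0.71, with standard errors of 0.05 to 0.17.

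**Figure D2:**
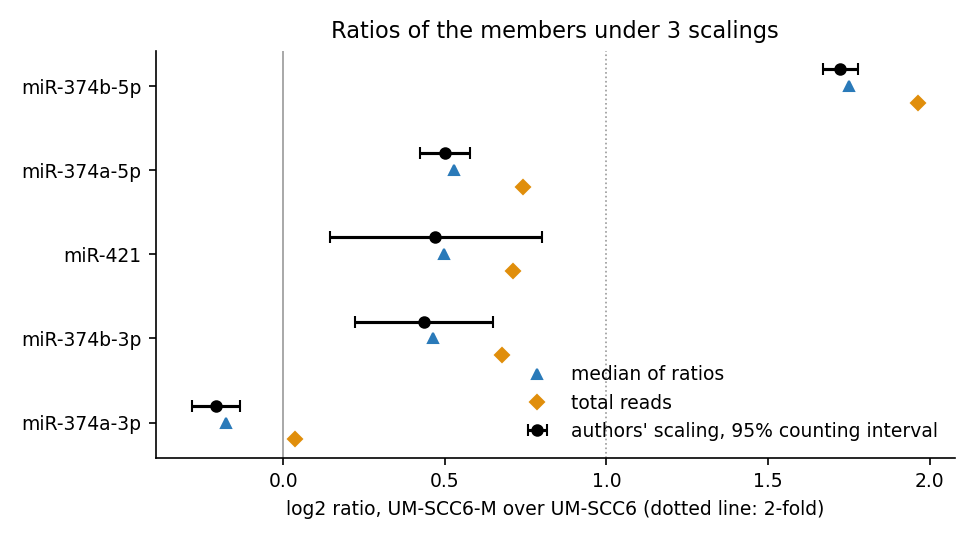
Log2 ratio (UM-SCC6-M over parental) of the 5 measurements under the authors' scaling (black, with exact 95% counting intervals), the median of ratios (triangles) and total reads (diamonds). miR-374b-5p stays beyond the dotted 2-fold line in all 3, miR-374a-5p, miR-421 and miR-374b-3p lie between 0 and that line, and miR-374a-3p goes from -0.21 to 0.04.

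The arm balance of both miR-374 hairpins lay more toward 5p in UM-SCC6-M. For miR-374b this includes the value for which the set was chosen, since the difference is the log2 ratio of miR-374b-5p (1.72) less that of miR-374b-3p (0.43), so it is a description only. For miR-374b, the 5p arm held 96.6% of the hairpin's reads in UM-SCC6-M (96.3 to 96.9) and 92.1% in the parental library (91.2 to 92.9). That is 28.3 5p reads for each 3p read against 11.6, a log2 difference of 1.29 (standard error 0.11). For miR-374a, the 5p arm held 55.0% in UM-SCC6-M (53.8 to 56.3) and 42.8% in the parental library (41.5 to 44.2), a log2 difference of 0.71 (0.05). The leading arm of miR-374a was therefore 5p in UM-SCC6-M and 3p in the parental library. How reads matching both 5p products were assigned is not known, and its part in the miR-374a balance was not tested. The 5p products also differed in their mix, as miR-374b-5p made up 78.7% of the reads of both (78.1 to 79.3) in UM-SCC6-M and 61.3% (60.0 to 62.6) in the parental library. This mix, too, holds the value for which the set was chosen.

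Such arm differences were frequent in these libraries. In 30 hairpins each arm reached 50 normalized reads in 1 or both libraries, and 9 of these (30%) differed by 1 or more in log2, and the median size was 0.76. The miR-374a difference, of 0.71, was below the median, and miR-374b ranked 8th in size, a place from which nothing is read since its 5p value chose the set. The balance lay more toward 5p in UM-SCC6-M for 15 of the 30, among them both miR-374 hairpins. The leading arm changed for 3 of the 30 (10%), which were miR-374a, miR-30e and miR-181a. miR-423 and miR-3184 are opposite-strand names with nearly the same reads, and counted as 1 locus they left 29, with 9 (31.0%) at 1 or more, a median of 0.78, 15 toward 5p and 3 with another leading arm.

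**Figure D3:**
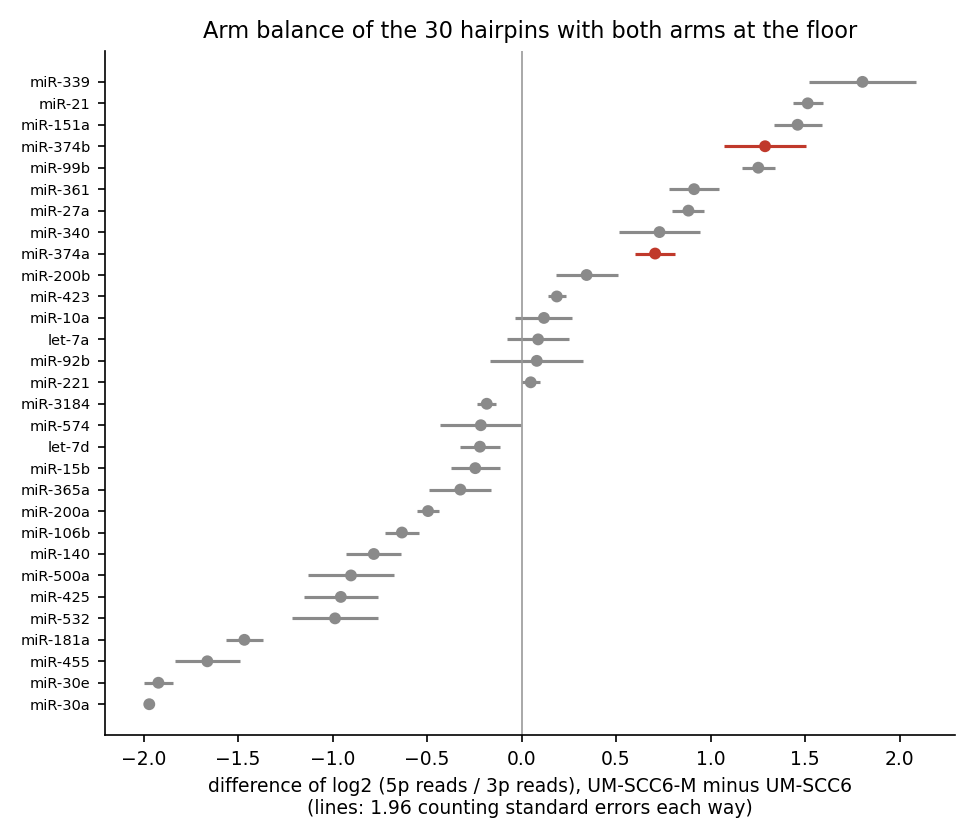
Difference between the libraries in log2 of 5p over 3p reads for 30 hairpins, with approximate 95% counting intervals as lines. The miR-374b (1.29) and miR-374a (0.71) hairpins, in red, lie on the 5p side, within the range of the other hairpins.

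Among all 179 named miRNAs that reached 50 normalized reads in 1 or both libraries, 36 (20.1%) were at least 2-fold apart, 13 (7.26%) of them higher and 23 (12.8%) lower in UM-SCC6-M. The median log2 ratio was 0.04. Of the members, 4 measurements reached that level, of which miR-374b-5p alone was past 2-fold. The members' contrast was used to choose the set, so nothing is read from that share. miR-374b-5p had the third highest ratio of the 179, and its second name the fourth, so this locus stands for 2 of the 13 higher miRNAs. miR-374a-5p ranked 41st, miR-374b-3p 44th and miR-374a-3p 110th. The 20 other miRNAs whose UM-SCC6-M level lay within 1.5-fold of that of miR-374b-5p had a median log2 ratio of 0.08 and ranged from -0.99 to 1.47.

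Nearest in log2 ratio to miR-374b-5p were miR-450a-5p (1.49), miR-4521 (1.47) and miR-450b-5p (1.47), which lay 0.24 to 0.26 below it. Likeness here rests on 1 ratio from 2 libraries. Of the 3, miR-4521 was also close in level, with 1353 normalized reads in UM-SCC6-M and 488.5 in the parental library.

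Over the 158 miRNAs at that level with a sequence, Pearson's r between GC share and log2 ratio was -0.02, a description across miRNAs that share the 2 libraries. The 9 others with a GC share at or below that of miR-374b-5p had a median log2 ratio of 0.11 and ranged from -3.27 to 1.49.

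Other miRNAs of chromosome X were then listed beside the members. Of 60 names, 43 were tabulated and 19 reached 50 normalized reads in the higher library. The 3 most abundant were miR-222-3p (log2 ratio -0.54), miR-221-3p (-0.34) and miR-532-5p (-0.38). Of the 19, 5 were at least 2-fold higher and none was 2-fold lower. Over all 179 named miRNAs at that level, these 19 included, 13 (7.26%) were higher and 23 (12.8%) lower. The median log2 ratio was 0.14 for the 19 and 0.04 for the 179. All 5 higher names of the chromosome X list were products of neighbouring hairpins of 1 cluster: miR-424-3p (2.03), miR-450a-5p (1.49), miR-450b-5p (1.47), miR-542-3p (1.30) and miR-503-5p (1.24). Below 50 normalized reads but above 10, miR-188-5p (-2.20) and miR-548f-3p (-1.77) were more than 2-fold lower and miR-424-5p (1.01) was 2.01-fold higher.

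The spread of ratios was compared with that of other neighbouring hairpins on this chromosome. Over 4 measurements at 50 or more normalized reads, the log2 ratios of the FTX hairpins' products ranged over 1.93. The range was 0.99 over 7 products of the cluster with miR-532 and miR-660, 0.79 over the 5 of the cluster with miR-424 and miR-503, and 0.26 over 3 products of the miR-221 and miR-222 hairpins. The FTX value includes the product for which the set was chosen, and without it the range equals the 0.71 between miR-374a-5p and miR-374a-3p. Names below 50 normalized reads, such as miR-188-5p (log2 ratio -2.20) and miR-421, were left out of all these ranges. Ranges over whole clusters may therefore be wider, and no order of the clusters is read from them.

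**Figure D4:**
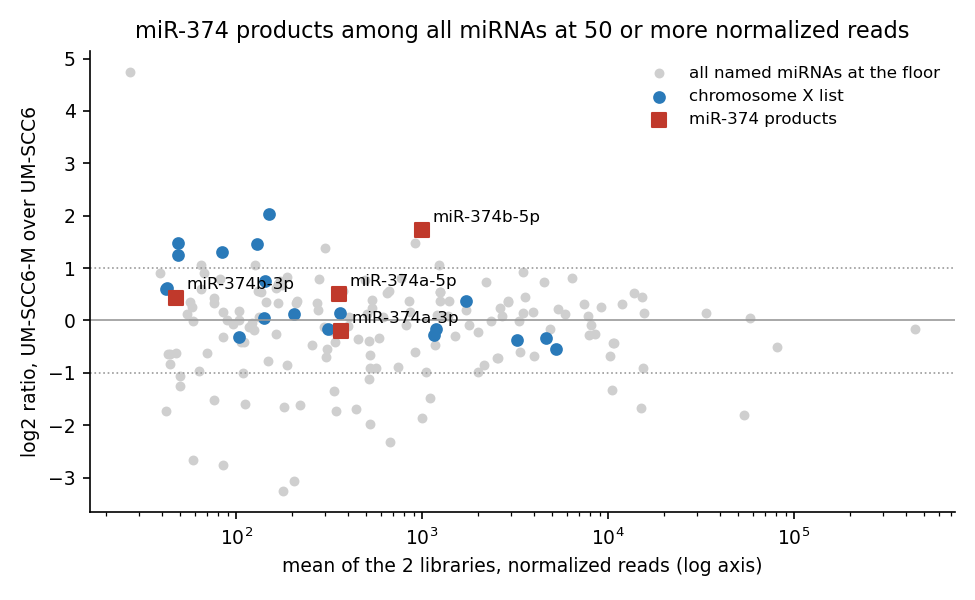
Log2 ratio (UM-SCC6-M over parental) against the mean normalized reads (log axis) of 179 named miRNAs, with the chromosome X list in blue and the miR-374 products in red. miR-374b-5p stands at 1.72, and the other 3 miR-374 products lie between the dotted 2-fold lines.

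The table holds both names of the miR-374b locus, so it was asked how opposite-strand names were treated in general. Among miRNAs with a RefSeq sequence, 31 pairs of tabulated names overlap on opposite strands by at least 10 bases. For 8 of these the higher name had at least 50 reads in each library. In 5 of the 8 the names were within 2% of each other in both libraries, among them miR-374b-5p with miR-374c-3p, and miR-24-3p with miR-3074-5p. For miR-103a-3p and miR-103b the lower name had 92.3% and 92.5% of the reads of the higher. A read comes from 1 strand, and whether counting used the strand is not given in the sources used here, so the strand of the reads named miR-374b-5p and miR-374c-3p cannot be told apart.

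The other arms of this locus had unlike read numbers. miR-374c-5p, which is not in the set and was named after its values were seen, overlaps miR-374b-3p by 18 bases with both ends offset by 4. It had 16 reads in UM-SCC6-M and 6 in the parental library, against 456 and 303 for miR-374b-3p, which is 3.51% and 1.98%. The only other of the 8 pairs with an end offset of 4, miR-550a-5p with miR-550b-3p, stood at 56.8% and 59.0%. miR-374c-5p also shares 20 bases in the same direction with miR-374b-5p (auaauacaaccugcuaagug), and its interval of log2 ratio ran from -0.17 to 2.90, so no difference was detectable at this depth.

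**Figure D5:**
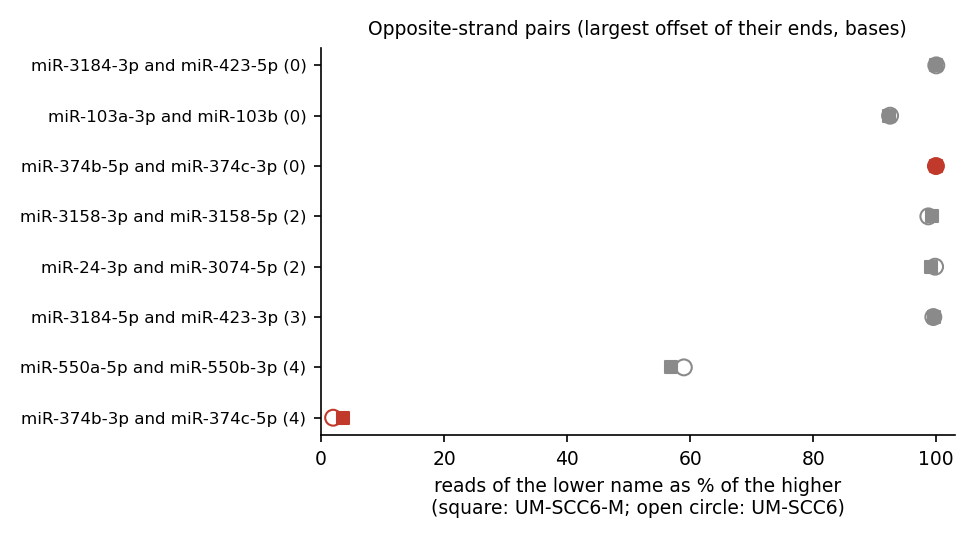
Reads of the lower name as a percentage of the higher, for 8 pairs of miRNA names from opposite strands, in UM-SCC6-M (squares) and the parental library (open circles), with the largest offset of their ends in brackets. miR-374b-5p with miR-374c-3p lies at 99.9% in both libraries and miR-374b-3p with miR-374c-5p at 3.51% and 1.98%.

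In the authors' deposited table, miR-374b-5p and miR-374c-3p were marked as selected, with q-values of 3.83e-172 and 5.6e-172. The authors' deposited table did not mark the other members, and gave q-values of 9.56e-11 for miR-374a-5p, 0.123 for miR-374b-3p, 0.494 for miR-421 and 0.991 for miR-374a-3p. These q-values compare 2 libraries and not the 2 conditions. They were not recomputed from the recovered reads, on which the counting intervals rest, so the q-values and the intervals are not like measures.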

How the data were processed

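Per the labels' protocols, adaptors were ligated to 3 µg of total RNA per culture, and amplified fragments of 140 to 160 bp were cut from a gel. The authors deposited 1 table with a signal value per miRNA and library, scaled from reads by a method not given in the sources used here. Bowtie is named in the submitters' processing notes without a version. The log2 fold changes, p-values and q-values are the authors' own, per the file headers, and called nothing here.

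Values above 0 were whole multiples of 1 step per library (largest deviation 7.16e-05 reads), which gave the reads. Where 1 library was listed at 0, its reads came from the deposited log2 fold change. Ratios used the authors' scaling with 0.5 reads added. The size rule was at least 2-fold apart with 50 or more normalized reads in the higher library. Named miRNAs were all members, any entry sharing a member's seed, chromosome X list entries past the size rule and its 3 most abundant, and the 3 nearest ratios to miR-374b-5p. Members and lists were chosen with earlier results of these data known, and the opposite-strand, base composition, level and locus comparisons, and the count of miR-423 and miR-3184 as 1 locus, were added after seeing the data. No count model was fitted, since each group has 1 library. On simulated libraries of 543 miRNAs with counting error only, 70 of 70 miRNAs changed 4-fold above the floor were recovered and 0 of 114 unchanged ones passed. This checks the calculation alone, since the simulated libraries had no variation between cultures or preparations. Python 3.11.15, numpy 2.4.6, pandas 2.3.3, scipy 1.17.1 and matplotlib 3.10.9 were used.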

Additional observations from a re-analysis of the deposited data

How the results depend on the processing

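Scaling both libraries to total reads raised every log2 ratio by 0.24. It gave 1.97 for miR-374b-5p, 0.74 for miR-374a-5p, 0.68 for miR-374b-3p, 0.035 for miR-374a-3p, 1.21 for the summed members and 0.38 for the chromosome X median, and 22 miRNAs at least 2-fold higher in place of 13. The median of ratios and 5 added reads moved no ratio of a member outside its counting interval. Counting both names of the shared locus gave 1.22 for the sum, and leaving out miR-374b-5p gave 0.16. Counts of miRNAs higher and lower were 21 and 45 with a floor of 10, 6 and 15 with a floor of 200, and 32 and 46 at 1.5-fold. With a floor of 10 the chromosome X list had 6 members higher, 2 lower and a median of 0.037. The arm differences of both miR-374 hairpins stayed within their intervals under the alternatives run. No paired analysis was possible because each group has 1 library, and none could be left out. The arm balance of miR-545 gave no value. Depth limits miR-545-3p, for which no ratio could be given, and widens the intervals of miR-421, miR-374b-3p and miR-374c-5p.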
